A study of Mus musculus with 4 samples.

Results

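Bmper Penk fibroblasts are stromal cells of the thymus selected here on UMIs (unique molecular identifiers, counts of captured mRNA molecules) of Bmper, Inmt, Penk and Gdf10. A cell was kept when over 1000 genes were detected and mitochondrial UMIs were below 20%. It counted as a fibroblast with at least 3 UMIs of Pdgfra, Col1a1 and Col1a2 together and 0 UMIs of the epithelial, endothelial and leukocyte genes Epcam, Pecam1 and Ptprc. It was a member if Bmper, Inmt, Penk and Gdf10 together had at least 3 UMIs and more than each of 2 other sets, Postn, Fcgr2b, Ltc4s and Gfra2 (Postn fibroblasts) and Pi16, Fndc1, Pcolce2 and Sfrp2 (Pi16 fibroblasts). Of 13981 called barcodes, 10245 cells were kept, 2077 were fibroblasts and 748 were Bmper Penk fibroblasts, beside 572 Postn fibroblasts, 432 Pi16 fibroblasts and 325 fibroblasts of no class. The cells came from droplet-based 3′ single-cell RNA-seq of CD45- cells of untreated 6-month-old C57BL/6 mice, in 2 libraries of wild-type controls that the labels call mock (WT) and 2 libraries of mice homozygous for the LacZ allele of Foxn1 (Z/Z). Foxn1 is the transcription factor that thymic epithelial cells need for their differentiation, and the comparison asks how the stroma differs when both copies carry the LacZ allele. Each library pools the thymi of several animals, from which leukocytes were removed on CD45 beads before sorting. The p-values therefore measure only the spread between pools. The labels give male mice in one field and female mice in another.

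Fibroblasts of the thymus form the capsule and the septa and surround vessels, and they send growth factors to epithelial cells. Fgf7 and Fgf10 are ligands of the epithelial splice form of the receptor Fgfr2, and mesenchymal FGF drives the growth of thymic epithelium in development and after injury. Of the selection genes, Bmper encodes a secreted protein that binds BMPs, Gdf10 a ligand of the TGF-β superfamily, Penk the precursor of enkephalin peptides and Inmt a methyltransferase of indolamines.

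Members numbered 64, 27, 435 and 222 for WT 1, WT 2, Z/Z 1 and Z/Z 2, with median depths of 14952, 14851, 11180 and 10186.5 UMIs per cell. Their summed counts were 951754, 400117, 5020352 and 2368657 UMIs. Over cells with an Epcam UMI, Foxn1 had 78.9 and 85.7 CPM (UMIs per 1000000 of the summed UMIs) in WT and 44.5 and 58.8 CPM in Z/Z. The study describes the allele as a hypomorph, with Foxn1 lost early from thymic epithelium and early involution of the thymus. A called barcode of 14 of the 27 members in WT 2 was also called in WT 1, where it carried 502 to 1579 UMIs and 376 to 867 genes, under the gene limit, against 14851 to 37250 UMIs in WT 2. WT 1 had 1 member with a shared barcode, Z/Z 1 had 3 and Z/Z 2 had 0, and each of these was deeper in its own library.

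The selection itself was met with room in most members. The 4 selection genes together had a median of 14.5, 8, 14 and 14 UMIs per member in WT 1, WT 2, Z/Z 1 and Z/Z 2, and the highest member of each library had 67, 53, 87 and 95 UMIs. At the edge, 6, 4, 23 and 12 members held exactly 3 UMIs, and 2, 2, 40 and 8 fibroblasts missed membership with 2 UMIs, although the other 2 sets had fewer. Penk was the most widely detected of the 4 genes, with a UMI in 95.3%, 96.3%, 93.6% and 90.1% of members, followed by Inmt with 70.3%, 66.7%, 75.2% and 87.4%. Gdf10 was detected in 39.1% and 40.7% of members in WT and 73.8% and 62.6% in Z/Z, and Bmper in 46.9%, 14.8%, 33.8% and 34.2%. Members therefore ranged from cells with UMIs of 1 selection gene (13, 6, 34 and 16 cells) to cells with all 4 (15, 2, 91 and 43 cells). These values chose the members and are given as a description. As summed levels, Bmper had 222, 19.3, 173 and 129.6 CPM in the members and was lower in WT 2 than in Pi16 fibroblasts of that library, which had 33.2 CPM, so Bmper by itself did not mark the class in that library. Inmt, Penk and Gdf10 exceeded both other classes in each of the 4 libraries.

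Markers of other cells were low in the members. Summed over 11 epithelial markers the level was 46.0, 41.3, 48.0 and 75.0 CPM, with Foxn1, Krt5, Krt14, Psmb11 and Aire each at 5.75 CPM or less. Summed levels of 9 endothelial markers were 60.9, 74.3, 55.8 and 48.5 CPM and those of 10 myeloid and B cell markers 62.1, 30.3, 26.9 and 40.1 CPM, with Cd79b at 0 in every library. The 12 thymocyte markers summed to 105, 179, 27.4 and 114 CPM, of which Thy1, a gene that fibroblasts also express, had 65.5, 82.6, 22.2 and 35.9 CPM. The 6 Schwann cell markers summed to 24.1, 13.8, 4.35 and 6.53 CPM, with Gfap at 0, and 5 mesothelial markers to 0, 0, 1.96 and 2.80 CPM, with Lrrn4 at 0. The 10 pericyte and smooth muscle markers were higher in sum in Z/Z, with 165 and 132 CPM in WT 1 and WT 2 and 321 and 222 CPM in Z/Z 1 and Z/Z 2. Among them Tagln and Myl9 passed the test between genotypes, as given further on.

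Bmper Penk fibroblasts were a larger share of fibroblasts in Z/Z than in WT. WT 1 had 14.5% of 441 fibroblasts (95% Clopper-Pearson interval 11.4% to 18.2%) and WT 2 had 21.1% of 128 (14.4% to 29.2%). Z/Z 1 had 42.9% of 1014 (39.8% to 46.0%) and Z/Z 2 had 44.9% of 494 (40.5% to 49.4%). The WT mean was 17.8% ± 4.65 (SD, n = 2), and the Z/Z mean was 43.9% ± 1.44 (SD, n = 2). The difference was 26.1 percentage points, and both Z/Z libraries lay above both WT libraries. The exact permutation test (two-sided) gave p = 0.333, and this design allows no smaller p. Postn fibroblasts, with the same exact permutation p of 0.333, went from 45.3% ± 3.29 (SD, n = 2) in WT down to 19.2% ± 4.80 (SD, n = 2) in Z/Z. Pi16 fibroblasts overlapped between genotypes, at 22.6% ± 8.76 (SD, n = 2) for WT against 20.5% ± 6.80 (SD, n = 2) for Z/Z (exact permutation p = 0.667). With each cell thinned to 5000 UMIs before selection, the shares of Bmper Penk fibroblasts were 11.2%, 11.5%, 37.8% and 39.2%, and with at least 5 selection UMIs they were 12.9%, 17.2%, 38.0% and 40.3%. Without the cells of shared barcodes the difference was 28.1 points. The intervals cover counting error alone. More cells of the class, more selection UMIs per cell and fewer UMIs of the other sets cannot be told apart by this measure. Gdf10 had 96.5, 107, 264 and 185 CPM in the members. In the same library order, 54, 23, 131 and 73 fibroblasts had at least 3 selection UMIs but more UMIs of another set. In Pi16 fibroblasts Pi16 had 4745 and 4426 CPM in WT and 2504 and 2819 CPM in Z/Z. In Postn fibroblasts Ltc4s went the other way, with 328 and 296 CPM against 472 and 517 CPM.

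**Figure D1:**
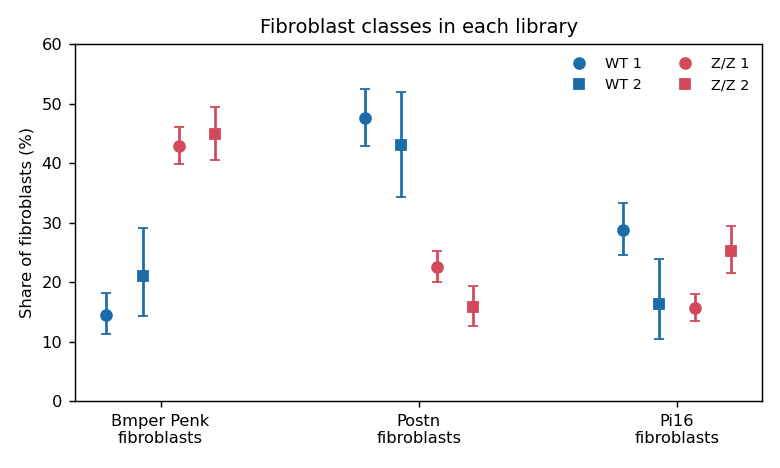
Share of fibroblasts in each of 3 classes, in percent, for each library (points) with 95% Clopper-Pearson intervals (bars). Bmper Penk fibroblasts were at 14.5% and 21.1% for WT against 42.9% and 44.9% for Z/Z, Postn fibroblasts showed the opposite order, and Pi16 fibroblasts overlapped.

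Both FGF ligands of the label were higher in Bmper Penk fibroblasts than in the other classes in every library. Fgf10 (ENSMUSG00000021732, GRCm38 chromosome 13, 118669791 to 118792115, plus strand) had 506, 344, 409 and 560.2 CPM in WT 1, WT 2, Z/Z 1 and Z/Z 2, against 83.0 to 129 CPM in Postn and 111 to 223 CPM in Pi16 fibroblasts. Its ratio to the higher of both other classes ran from 2.07 to 4.55 over the libraries. Fgf7 (ENSMUSG00000027208, chromosome 2, 126034658 to 126091185, plus strand) had 125, 74.3, 145 and 138 CPM, against 10.3 to 30.2 CPM in Postn and 35.5 to 113 CPM in Pi16 fibroblasts, a ratio of 1.28 to 3.52. The distance to Pi16 fibroblasts was thus small for Fgf7 in Z/Z, where these had 113 and 93.9 CPM. In cells thinned to 5000 UMIs, a Fgf10 UMI was found in 71.2%, 41.7%, 60.1% and 71.1% of members, and in 84.4%, 59.3%, 73.8% and 82.9% before thinning. The thinned share was 22.6% to 34.2% in Postn and 35.6% to 47.4% in Pi16 fibroblasts, and in WT 2 the Pi16 share (9 of 19 cells) was above that of the members (10 of 24 cells). A Fgf7 UMI was found in 50.8%, 20.8%, 30.7% and 35.1% of thinned members, or 64.1%, 40.7%, 46.9% and 46.4% unthinned. The thinned Fgf7 share was 5.26% to 7.35% in Postn and 16.9%, 10.5%, 28.3% and 21.8% in Pi16 fibroblasts. Before thinning, 47.8% of Pi16 fibroblasts in Z/Z 1 had a Fgf7 UMI, above the members, and the Pi16 share was lower in the other libraries. Endothelial cells, which should lack both genes, had a Fgf10 UMI in 0%, 0%, 0% and 0.621% of thinned cells and a Fgf7 UMI in 0% in all 4 libraries, the zeros being 0 of 73, 20, 326 and, for Fgf7, 322 cells, with upper 95% Clopper-Pearson bounds of 4.93%, 16.8%, 1.13% and 1.14%. Levels in empty droplets were 9.04 to 37.3 CPM for Fgf10 and 3.39 to 9.41 CPM for Fgf7. Since the members were selected against the other classes, these contrasts are descriptions without a test.

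Beyond the selection genes, 412 of the 9957 genes measured in the members, 4.14%, were above both other classes in every library, and 278, 2.79%, were below both. The 20 genes with at least 100 CPM in every library and the largest lowest ratio were led by Srpx, a sushi-repeat protein of the cell surface and matrix, with 310.3, 234, 229 and 209 CPM, against 30.2 to 80.2 CPM in Postn and 40.7 to 79.1 CPM in Pi16 fibroblasts. Then came Plcb1, a phospholipase C of G-protein signalling, with 202, 171, 219 and 220.5 CPM, against 42.8 to 71.9 CPM in Postn and 67.6 to 84.4 CPM in Pi16 fibroblasts. Cdh11, the cadherin of mesenchymal cells, had 271, 157, 141 and 163 CPM, against 39.1 to 122 CPM in Postn and 25.5 to 36.8 CPM in Pi16 fibroblasts. Secreted proteins among the 20 included Fgf10, Igf1, Cxcl1, Il6 and Thbs1. Igf1 had 499, 347, 484 and 394 CPM, against 123 to 175 CPM in Postn and 113 to 200.3 CPM in Pi16 fibroblasts. Pappa, a protease that frees IGF from Igfbp4, had 848, 639, 518 and 446 CPM, against 115 to 267 CPM in Postn and 2.55 to 39.0 CPM in Pi16 fibroblasts. C7, a terminal component of complement, had 510.2, 306, 553 and 557 CPM, against 47.8 to 188 CPM in Postn and 107 to 216 CPM in Pi16 fibroblasts. Enzymes and transporters among the 20 were Steap4, a metalloreductase, with 478, 328, 435 and 563 CPM, against 127 to 299 CPM in Postn and 45.9 to 84.7 CPM in Pi16 fibroblasts, and B3galt1, a galactosyltransferase. Lpl, the lipase of circulating triglyceride, had 755, 539.5, 981 and 1001 CPM, against 289.8 to 709.7 CPM in Postn and 354 to 414 CPM in Pi16 fibroblasts. The remaining genes were the adhesion and cytoskeletal genes Kirrel3, Pcdh7 and Ank3, and Thsd7a, Gask1b, Crispld2 and Auts2, with lowest ratios of 1.31 to 1.82 for these 7 together with B3galt1 and Thbs1. After thinning of each cell to equal depth, 19 of the 20 were still above both classes in every library.

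**Figure D2:**
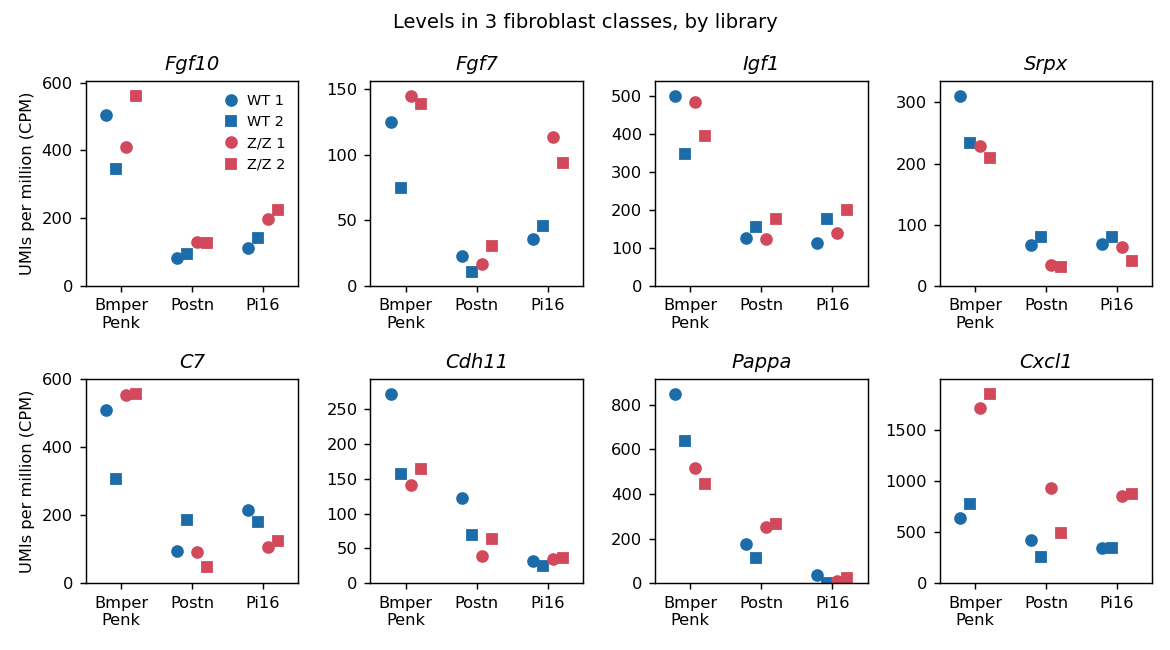
CPM (linear axes from 0) of 8 genes in 3 fibroblast classes, with 1 point for each library, WT in blue and Z/Z in red. In every library the Bmper Penk fibroblasts were above both other classes for all 8 genes, and for Fgf7 the Pi16 fibroblasts of Z/Z came close.

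Genes of several growth factor pathways had their highest level in the class, again as a description without a test. Of 15 FGF ligands, receptors and feedback genes measured, 3 were above both other classes in every library, namely Fgf7, Fgf10 and the decoy receptor Fgfrl1. Of 17 BMP and GDF genes, 3 were, among them Bmp4, a ligand upstream of Foxn1 in epithelium, with 153, 157, 111 and 117 CPM, against 75.1 to 127 CPM in Postn and 18.6 to 53.3 CPM in Pi16 fibroblasts. Of 15 Wnt genes, 2 were above both classes and 1 was below both. Rspo3, which strengthens Wnt signalling, had 80.4, 85.3, 129 and 119 CPM, against 11.6 to 47.1 CPM in Postn and 28.1 to 58.4 CPM in Pi16 fibroblasts. Sfrp1, a secreted Wnt antagonist, had 250.5, 206, 166 and 247 CPM, against 3.94 to 18.9 CPM in Postn and 45.9 to 157 CPM in Pi16 fibroblasts. Ptn, the heparin-binding factor pleiotrophin, did not follow this order, with 2674, 2453, 1467 and 1201 CPM, against 3019 to 3472 CPM in Postn and 5.11 to 35.5 CPM in Pi16 fibroblasts. In the IGF axis of 10 genes, Igf1 and Igfbp3 were above both classes and the receptor Igf1r was below both. Among 10 retinoic acid genes, 2 were above both classes, among them Dhrs3, a retinal reductase.

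Immune and matrix genes divided differently. Of 25 chemokines and cytokines, 6 were above both other classes in every library: Cxcl1, Ccl2, Ccl7, Il6, Tnfsf13b, the B cell factor BAFF, and the receptor Lifr. Ccl7, a chemokine of monocytes, had 445, 617, 851 and 892 CPM, against 67.3 to 365 CPM in Postn and 443 to 631 CPM in Pi16 fibroblasts. Of 12 complement genes, 4 were, among them C7, C1s1 and Masp1. Masp1, the protease of the lectin pathway, had 142, 74.3, 24.8 and 21.0 CPM, against 2.66 to 6.47 CPM in Postn and 0 to 5.43 CPM in Pi16 fibroblasts. Of 20 basement membrane genes 4 were above both classes and 1 was below both. Those above included Lama2, the laminin α2 chain, at 2090.2, 2213, 1394 and 1404 CPM. Lama2 had 1306 to 1479.9 CPM in Postn and 642 to 1141 CPM in Pi16 fibroblasts. Of 12 fibrillar and beaded collagens 0 were above both classes and Col16a1 was below both. Neither any of 10 steroid and nuclear receptors nor any of 19 interferon-stimulated genes was above both classes in all libraries.

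Between genotypes, few genes of the class passed the test, and those that rose in Z/Z included Ptx3, Hp, Cxcl1 and Il6. UMI sums per library were compared by edgeR's quasi-likelihood test (two-sided) over 9957 genes, selection genes excepted, and a gene was called at an adjusted p under 0.05 (Benjamini-Hochberg). It called 23 genes higher in Z/Z (0.231%) and 17 lower (0.171%), and the median log2 fold change of all genes was −0.0023. Groups that did not overlap were common, with 20.2% of the genes higher and 25.8% lower in both Z/Z libraries than in both WT libraries, so that non-overlap says little here. Without Z/Z 2, edgeR called 0 genes in either direction, with 199 higher and 133 lower at an unadjusted p under 0.05, and without Z/Z 1 it called 10 higher and 1 lower. Without the cells of shared barcodes it called 22 higher and 24 lower, and 27 of 38 called genes that were measured still passed. All 40 genes kept their direction in all 13 alternatives in which they were measured.

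Ptx3 and Hp rose in Z/Z. Ptx3 (ENSMUSG00000027832, chromosome 3, 66219910 to 66225805, plus strand), the long pentraxin that binds microbes and complement, had 11.5 and 19.3 CPM in WT 1 and WT 2 and 364 and 332 CPM in Z/Z 1 and Z/Z 2. Its log2 fold change was 4.69 (SE 0.31, edgeR adjusted p = 0.000638). Hp (chromosome 8), haptoglobin, the plasma protein that binds free haemoglobin, had 6, 0, 782 and 297 UMIs, or 6.89 and 0 CPM in WT 1 and WT 2 and 169.9 and 138 CPM in Z/Z 1 and Z/Z 2. The log2 fold change was 5.06 (SE 0.47, edgeR adjusted p = 0.00434). Both Z/Z libraries were above both WT libraries for each gene. The size for Hp rests on the 6 UMIs of WT 1: without WT 1 the fit gave 11.52 and in thinned cells 9.33, values that depend on the prior count because the WT members then had no Hp UMI. After thinning, Ptx3 was detected in 3.39% and 0% of WT members against 17.4% and 20.9% of Z/Z members. It was detected in 51.7%, 63.2%, 73.0% and 67.2% of thinned Pi16 fibroblasts. Before thinning the shares of members were 4.69%, 3.70%, 22.5% and 23.9%. Hp was detected in 0% and 0% of thinned WT members, 0 of 59 and 0 of 24 cells with upper bounds of 6.06% and 14.2%, and in 11.8% and 8.53% of thinned Z/Z members. A minority of the Z/Z members thus carried these transcripts. In thinned Pi16 fibroblasts Hp was detected in 4.24%, 10.5%, 52.0% and 39.5% for WT 1, WT 2, Z/Z 1 and Z/Z 2. Thinned endothelial cells had Ptx3 in 0% to 4.04% and Hp in 0% to 1.23%, and empty droplets had 59.7, 41.2, 106 and 129.8 CPM of Ptx3. With the empty-droplet RNA subtracted, the log2 fold change of Ptx3 was 4.79, and in thinned cells it was 5.55.

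Chemokines and cytokines rose in 3 of 25 list members measured, Cxcl1, Cxcl9 and Il6, and 0 fell, with a median log2 fold change over the list of 0.09. Cxcl1, which draws neutrophils through Cxcr2, had 641 and 771 CPM in WT 1 and WT 2 and 1716 and 1849.9 CPM in Z/Z 1 and Z/Z 2. This was a log2 fold change of 1.39 (SE 0.21, edgeR adjusted p = 0.0367). Il6, the inducer of the hepatic acute phase, had 253 and 182 CPM in WT 1 and WT 2 and 516 and 660.0 CPM in Z/Z 1 and Z/Z 2. The change was, in log2 units, 1.47 (SE 0.24, edgeR adjusted p = 0.0410). Cxcl9, a chemokine induced by interferon-γ, had 3.45 and 16.5 CPM in WT 1 and WT 2 and 65.6 and 109 CPM in Z/Z 1 and Z/Z 2 from 3, 6, 302 and 234 UMIs, a log2 fold change of 3.57 (SE 0.56, edgeR adjusted p = 0.0367). Cxcl5, a further Cxcr2 ligand outside the list, had 11.5 and 27.5 CPM in WT 1 and WT 2 and 113 and 157 CPM in Z/Z 1 and Z/Z 2. Its log2 fold change was 3.05 (SE 0.39, edgeR adjusted p = 0.0162). The Z/Z libraries were above the WT libraries for each of these 4 genes. With the cells of shared barcodes left out, which removed 14 of the 27 WT 2 members, Cxcl1, Il6 and Cxcl9 no longer passed, with log2 fold changes of 1.34, 1.10 and 3.17 (edgeR adjusted p = 0.0552, 0.114 and 0.0748). Cxcl9 gave 2.43 without WT 1 (edgeR adjusted p = 0.0637), 4.72 without WT 2 and 7.73 in thinned cells (edgeR adjusted p = 0.0563), and Cxcl5 gave 2.34 without WT 1 and 2.21 in thinned cells (edgeR adjusted p = 0.0534). Other chemokines of the list gave values that did not pass, such as Ccl2 with 529.7 and 705 CPM in WT 1 and WT 2 and 870.4 and 877 CPM in Z/Z 1 and Z/Z 2 (edgeR adjusted p = 0.334). Cxcl12, the ligand of Cxcr4, had 131 and 102 CPM in WT 1 and WT 2 and 101 and 99.7 CPM in Z/Z 1 and Z/Z 2 (edgeR adjusted p = 0.775).

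Cxcl1 and Il6 are shown with the 120 bases before their start because they rose together and hold the same short motif there, a choice made after their values were seen. The letters searched on both strands were GGGANNTTCC, a form of the NF-κB motif, in the 300 bases from 250 before to 50 after the start (RefSeq, GRCm38.p6). Capitals mark the matches.
Cxcl1 (chr5:90891125-90891244, plus strand): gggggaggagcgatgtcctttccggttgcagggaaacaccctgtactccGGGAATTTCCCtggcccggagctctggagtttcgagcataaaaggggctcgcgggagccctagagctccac
Il6 (chr5:30012994-30013113, plus strand): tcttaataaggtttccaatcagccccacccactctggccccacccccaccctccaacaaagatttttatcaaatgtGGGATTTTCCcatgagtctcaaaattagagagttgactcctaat
In Cxcl1 a match on each strand overlaps, the farther one starting 71 bases before the start, and in Il6 there is 1 match, starting 44 bases before it. The motif stood in 482 of 32851 promoters (1.47%). It stood in 2 of the 13 genes higher in Z/Z that have a promoter entry and in 0 of the 7 lower genes that have one. The 2 genes are Cxcl1 and Il6 themselves, which were shown because they hold the motif, so these counts are not a test of enrichment. A match is a description of the letters and not of binding.

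Gpx3, Procr, F3, Trf and Agt also rose in Z/Z. Gpx3 (ENSMUSG00000018339, chromosome 11, 54902453 to 54910377, plus strand), the secreted glutathione peroxidase, had 202 and 143 CPM in WT 1 and WT 2 and 847 and 896 CPM in Z/Z 1 and Z/Z 2. The log2 fold change was 2.37 (SE 0.23, edgeR adjusted p = 0.00469), and no other passed of 19 antioxidant and detoxifying enzymes. It was detected in 42.4% and 29.2% of thinned WT members and 73.7% and 73.9% of thinned Z/Z members, against 0% to 4.91% of thinned endothelial cells. For WT 1, WT 2, Z/Z 1 and Z/Z 2, the shares in thinned Pi16 fibroblasts were 22.9%, 36.8%, 72.4% and 63.9%. Those in thinned Postn fibroblasts were 11.3%, 15.1%, 33.8% and 31.6%. In empty droplets Gpx3 had 55.8 and 23.7 CPM in WT 1 and WT 2 and 348 and 412 CPM in Z/Z 1 and Z/Z 2. With the estimated empty-droplet RNA subtracted, 36 of 39 called genes that were measured still passed, with Gpx3 among them. F3, Ecscr and Myl9 did not (edgeR adjusted p = 0.0504, 0.0557 and 0.320). Procr, the endothelial protein C receptor, had 26.4 and 16.5 CPM in WT 1 and WT 2 and 127 and 204 CPM in Z/Z 1 and Z/Z 2. This was a log2 fold change of 2.90 (SE 0.35, edgeR adjusted p = 0.0131). F3, tissue factor, which starts coagulation, had 20.7 and 22.0 CPM in WT 1 and WT 2 and 72.1 and 63.4 CPM in Z/Z 1 and Z/Z 2. The change was, in log2 units, 1.74 (SE 0.29, edgeR adjusted p = 0.0437). It passed in 7 of 13 alternatives and missed with DESeq2 (adjusted p = 0.0522) and in thinned cells (edgeR adjusted p = 0.0735). Trf, transferrin, rose with a log2 fold change of 1.60 (SE 0.22, edgeR adjusted p = 0.0243), and Agt, angiotensinogen, rose with a log2 fold change of 2.91 (SE 0.46, edgeR adjusted p = 0.0391). In thinned cells Procr gave 3.75 and Agt 7.74, and without WT 1 Agt gave 3.71. Agt had 5, 1, 178 and 66 UMIs in WT 1, WT 2, Z/Z 1 and Z/Z 2, so its size rests on few WT UMIs. Agt missed with the cells of shared barcodes left out, at 2.57 (edgeR adjusted p = 0.0639). Trf missed in thinned cells, at 1.12 (edgeR adjusted p = 0.0989).

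The other genes that rose under the naming rule were Sntg1, Olfr1033, Map1b, Mpp7 and Gm13889. Sntg1, a syntrophin, had 122 and 195 CPM in WT 1 and WT 2 and 824 and 912 CPM in Z/Z 1 and Z/Z 2. Olfr1033, annotated as an olfactory receptor, had 103 and 105 CPM in WT 1 and WT 2 and 651 and 474 CPM in Z/Z 1 and Z/Z 2. Map1b, a microtubule-associated protein, had 41.4 and 38.5 CPM in WT 1 and WT 2 and 178 and 222 CPM in Z/Z 1 and Z/Z 2. In each of the 5 genes both Z/Z libraries were above both WT libraries. Mpp7, a scaffold of cell junctions, had 67.8 and 33.0 CPM in WT 1 and WT 2 and 167 and 259.6 CPM in Z/Z 1 and Z/Z 2. Gm13889, a predicted gene, had 41.4 and 22.0 CPM in WT 1 and WT 2 and 122 and 109 CPM in Z/Z 1 and Z/Z 2. Without WT 1 the log2 fold changes of Mpp7 and Gm13889 were 2.74 and 2.45. For all 5 genes the log2 fold changes ran from 1.81 to 2.54. Sntg1 and Olfr1033 were also higher in Z/Z in the other classes. Their log2 fold changes were 3.65 and 1.89 in Postn fibroblasts (edgeR adjusted p = 0.00864 and 0.0456). In Pi16 fibroblasts they were 1.78 and 2.51 (edgeR adjusted p = 0.00869 and 0.00103). Mpp7 was also higher in Pi16 fibroblasts, with a log2 fold change of 2.38 (edgeR adjusted p = 0.00689). In Postn fibroblasts Mpp7 gave 0.32 (edgeR adjusted p = 0.806). Tagln and Myl9, contractile genes of smooth muscle that fibroblasts can also express, rose from 2.30 and 5.51 to 34.5 and 29.4 CPM and from 4.60 and 8.26 to 37.6 and 33.1 CPM. In empty droplets Tagln had 58.7, 26.0, 356 and 314 CPM in WT 1, WT 2, Z/Z 1 and Z/Z 2. Myl9 had 30.3, 19.8, 241 and 290 CPM there in the same order. Over the 8 genes tested of the pericyte and smooth muscle list, the median log2 fold change in the members was 1.35. The part of pericytes and smooth muscle cells in the increases of Tagln and Myl9 was not tested. Both genes lost the call in several alternatives, with Myl9 past the threshold in 5 of 13 and Tagln in 6 of 12. With doublets removed, Tagln and Myl9 missed (edgeR adjusted p = 0.112 and 0.0775). With empty-droplet RNA subtracted, Myl9 missed (edgeR adjusted p = 0.320) and Tagln was not among the genes measured. The rest of the 23 were Ano1, Plagl1, Mbd1, Rgs16 and Gm12840.

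Decreases in Z/Z held a cell-cycle gene, a protease inhibitor and a Wnt antagonist. Ccnd1 (ENSMUSG00000070348, chromosome 7, 144929931 to 144939925, minus strand), cyclin D1, had 94.2 and 135 CPM in WT 1 and WT 2 and 11.9 and 18.6 CPM in Z/Z 1 and Z/Z 2 from 82, 49, 55 and 40 UMIs, a log2 fold change of −2.86 (SE 0.32, edgeR adjusted p = 0.00813). Serpine2 (ENSMUSG00000026249, chromosome 1, 79794197 to 79861180, minus strand), protease nexin-1, which inhibits thrombin and urokinase, had 1752 and 2323 CPM in WT 1 and WT 2 and 753 and 714 CPM in Z/Z 1 and Z/Z 2. Its log2 fold change was −1.42 (SE 0.23, edgeR adjusted p = 0.0391). Serpine2 was detected in 94.0% to 100% of thinned Postn fibroblasts, against 93.2%, 95.8%, 83.3% and 85.3% of thinned members. Both genes were lower in each Z/Z library than in each WT library, and neither passed in cells thinned to equal depth, where the log2 fold changes were −2.09 and −0.96 (edgeR adjusted p = 0.157 and 0.053).

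The nonagouti gene, with the symbol a, encodes a paracrine antagonist of melanocortin receptors and had 239 and 176 CPM in WT 1 and WT 2 and 36.3 and 35.9 CPM in Z/Z 1 and Z/Z 2. The log2 fold change was −2.49 (SE 0.23, edgeR adjusted p = 0.00434). Masp1, which was above both other classes, had 142 and 74.3 CPM in WT 1 and WT 2 and 24.8 and 21.0 CPM in Z/Z 1 and Z/Z 2. This was a log2 fold change of −2.24 (SE 0.30, edgeR adjusted p = 0.0221), and −1.62 without WT 1, and no other of 12 complement genes passed. Dkk2, a secreted modulator of Wnt co-receptors, had 280.4 and 184 CPM in WT 1 and WT 2 and 65.2 and 78.3 CPM in Z/Z 1 and Z/Z 2. The change was, in log2 units, −1.67 (SE 0.24, edgeR adjusted p = 0.0268), and no other of 15 Wnt genes passed. Tmem132c, a membrane protein, had 199 and 314 CPM in WT 1 and WT 2 and 43.2 and 43.8 CPM in Z/Z 1 and Z/Z 2. Its log2 fold change was −2.48 (SE 0.27, edgeR adjusted p = 0.00698). For these 4 genes each Z/Z library was below each WT library, and Dkk2 no longer passed with the shared barcodes left out (log2 fold change −1.54, edgeR adjusted p = 0.0797). Pi15, a secreted protein with a protease inhibitor name, and Plscr2, a scramblase family gene, fell with log2 fold changes of −1.44 and −1.47 (edgeR adjusted p = 0.0268 and 0.0466). Each passed in 8 of 13 alternatives. Pi15 missed in thinned cells and with the shared barcodes left out, at −0.92 and −0.94 (edgeR adjusted p = 0.0923 and 0.171). With at least 5 selection UMIs Pi15 gave −1.12 (edgeR adjusted p = 0.0503). Genes that fell outside the naming rule were Htr1f, Nfasc, Ndnf, Prkg2, Mmp9, Cdh13, Cacna2d3 and Ecscr.

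**Figure D3:**
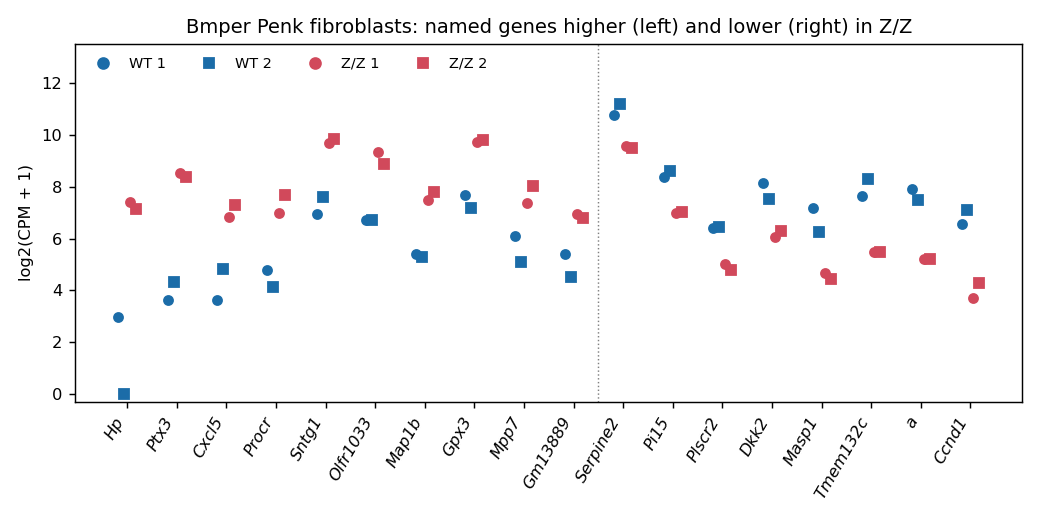
log2(CPM + 1) in the Bmper Penk fibroblasts of each library (points; WT blue, Z/Z red) for 18 genes named by the rule in the comparison of genotypes. Ptx3 had 11.5 and 19.3 CPM in WT and 364 and 332 CPM in Z/Z, and Serpine2 had 1752 and 2323 CPM in WT and 753 and 714 CPM in Z/Z.

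Several of these genes also passed the same test in another fibroblast class. The log2 fold change of Hp was 4.26 in Pi16 fibroblasts (edgeR adjusted p = 0.00232), that of Cxcl1 was 1.38 in Pi16 fibroblasts (edgeR adjusted p = 0.00237) and that of Il6 was 1.70 in Pi16 fibroblasts (edgeR adjusted p = 0.00315). For Gpx3 it was 1.23 in Postn fibroblasts (edgeR adjusted p = 0.0166) and 2.06 in Pi16 fibroblasts (edgeR adjusted p = 0.0168). Ccnd1 had −2.49 in Postn fibroblasts (edgeR adjusted p = 0.00227) and Tmem132c had −1.93 in Postn fibroblasts (edgeR adjusted p = 0.00203). Cxcl9 had 1.76 in Postn and 2.30 in Pi16 fibroblasts (edgeR adjusted p = 0.0341 and 0.0172). F3 had 1.27 and Trf 1.46 in Pi16 fibroblasts (edgeR adjusted p = 0.0372 and 0.0447). Tagln had 2.12 in Postn fibroblasts (edgeR adjusted p = 0.0125). Ano1, Prkg2 and Gm12840 passed in both other classes, in the same direction. Plagl1, Htr1f, Nfasc, Ndnf, Cdh13 and Cacna2d3 did so in Postn fibroblasts and Rgs16 in Pi16 fibroblasts. The values for Serpine2 were −0.16 in Postn fibroblasts (edgeR adjusted p = 0.782) and 0.41 in Pi16 fibroblasts (edgeR adjusted p = 0.393), and Ptx3 had 0.26 in Pi16 fibroblasts (edgeR adjusted p = 0.569).

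The ligands that name the class did not pass the test between genotypes. Fgf10 gave a log2 fold change of 0.23 (SE 0.25, edgeR adjusted p = 0.748) and Fgf7 a log2 fold change of 0.50 (SE 0.25, edgeR adjusted p = 0.444), with WT and Z/Z libraries overlapping for Fgf10. Of 15 FGF genes tested 0 rose and 0 fell, with a median log2 fold change of −0.17, and the smallest adjusted p belonged to Fgf1, an FGF without a secretion signal, with 58.6 and 63.3 CPM in WT 1 and WT 2 and 25.2 and 25.2 CPM in Z/Z 1 and Z/Z 2 (edgeR adjusted p = 0.0967). Of 17 BMP and GDF genes 0 passed, with a median of −0.18. Bmp4 had a log2 fold change of −0.39 (SE 0.20, edgeR adjusted p = 0.471), and Fst, the activin antagonist follistatin, had 164 and 102 CPM in WT 1 and WT 2 and 249 and 334 CPM in Z/Z 1 and Z/Z 2. The log2 fold change was 1.14 (SE 0.26, edgeR adjusted p = 0.112). Of 10 IGF genes 0 passed, with a median of 0.24 and a log2 fold change of 0.10 (SE 0.23, edgeR adjusted p = 0.897) for Igf1. Of 10 retinoic acid genes 0 passed, with a median of 0.34. The median over the 15 Wnt genes was −0.10. Ptn had 2674 and 2453 CPM in WT 1 and WT 2 and 1467 and 1201 CPM in Z/Z 1 and Z/Z 2. This was a log2 fold change of −0.89 (SE 0.21, edgeR adjusted p = 0.112), and of the 9 genes of its list 0 passed, with a median of 0.12.

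Matrix and state lists were also without calls at this depth, except for Gpx3 and, among the complement genes, Masp1. Of 20 basement membrane genes and 12 collagens 0 passed, with medians of 0.40 and 0.18. Of 18 inflammation and senescence genes 0 passed, with a median of 0.20, and of 23 immediate early and heat shock genes 0 passed, with a median of −0.04. Of 14 glucocorticoid-response genes 0 passed, with a median of 0.41. The metallothionein Mt1 had 3439 and 3479 CPM in WT 1 and WT 2 and 6571 and 9424 CPM in Z/Z 1 and Z/Z 2 (edgeR adjusted p = 0.0650), beside 715, 565, 4817 and 5729.5 CPM in empty droplets. Of 19 lipid genes 0 passed, with a median of 0.27, and Plin2, a coat protein of lipid droplets, had a log2 fold change of 1.27 (SE 0.23, edgeR adjusted p = 0.0614). The medians over complement, antioxidant, interferon-stimulated and fibroblast identity genes were −0.11, 0.14, 0.22 and 0.18, and of 19 interferon-stimulated genes and of 10 steroid and nuclear receptors 0 passed. A p that misses the threshold does not show equal levels. In simulated counts with these depths, 53 of 100 genes changed 2-fold and 100 of 100 changed 4-fold were called, beside 7 of 9389 unchanged genes. The changed genes were drawn only from those with a mean above 50 CPM, so recovery of weaker genes was not measured.

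Whether the genotype effect in Bmper Penk fibroblasts differed from that in the other classes was tested in 1 edgeR model over 12 sums, with library as a term, on 11665 genes. Against Postn fibroblasts 11 genes differed (0.0943%), with 6 effects more positive and 5 more negative in Bmper Penk fibroblasts, and against Pi16 fibroblasts 8 differed (0.0686%), with 3 more positive and 5 more negative. Ptx3 had the smallest p of either comparison: its effect exceeded that in Pi16 fibroblasts by 4.38 (SE 0.29, edgeR adjusted p = 1.92e-06) on the log2 scale, and it passed in 12 of 12 alternatives. In Pi16 fibroblasts Ptx3 was already high, at 1221, 1588, 1764 and 1466 CPM. Serpine2, found after the 5 genes of the rule, differed from Pi16 fibroblasts by −1.79 (SE 0.27, edgeR adjusted p = 0.0139), where it had 140.2, 125, 196 and 146 CPM. Dkk2 differed from Postn fibroblasts by −2.84 (SE 0.49, edgeR adjusted p = 0.0410), with 81.6, 27.2, 101 and 171 CPM there. Map1b differed from Postn fibroblasts by 2.02 (SE 0.33, edgeR adjusted p = 0.0393). Serpine2 passed in 11 of 12 alternatives, Dkk2 in 8 and Map1b in 7.

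Against Pi16 fibroblasts the other named genes were Gas6, Zbtb7c, Aspn and Ltbp4. Gas6, a ligand of the TAM receptors, had 219 and 138 CPM in WT 1 and WT 2 and 98.9 and 110.0 CPM in Z/Z 1 and Z/Z 2, against 19.3, 17.9, 48.1 and 97.8 CPM in Pi16 fibroblasts, a difference of effects of −2.74 (SE 0.36, edgeR adjusted p = 0.00831). Aspn, asporin, a small leucine-rich proteoglycan, had 13.8 and 11.01 CPM in WT 1 and WT 2 and 58.9 and 35.9 CPM in Z/Z 1 and Z/Z 2, against 422, 442, 119.5 and 185 CPM in Pi16 fibroblasts, a difference of 3.42 (SE 0.49, edgeR adjusted p = 0.0124). Ltbp4, which binds latent TGF-β, differed by −1.63 (SE 0.24, edgeR adjusted p = 0.0139), and Zbtb7c, a zinc finger gene, by −2.09 (SE 0.29, edgeR adjusted p = 0.0120). Against Postn fibroblasts the named genes were Il1rapl1, Gxylt2, Mmp9, Adgrd1 and Mfap2. Il1rapl1, a member of the IL-1 receptor family, had 59.8 and 35.8 CPM in WT 1 and WT 2 and 6.30 and 12.6 CPM in Z/Z 1 and Z/Z 2, against 3.22, 3.88, 21.8 and 25.2 CPM in Postn fibroblasts, a difference of −5.23 (SE 0.59, edgeR adjusted p = 0.00281). Mmp9, a gelatinase, had 42.5 and 44.0 CPM in WT 1 and WT 2 and 7.17 and 3.73 CPM in Z/Z 1 and Z/Z 2, against 167, 93.1, 156 and 287 CPM in Postn fibroblasts, a difference of −3.31 (SE 0.48, edgeR adjusted p = 0.0192). Gxylt2, a xylosyltransferase, differed by 2.24 (SE 0.29, edgeR adjusted p = 0.00801), Adgrd1, an adhesion G-protein-coupled receptor, by 3.33 (SE 0.49, edgeR adjusted p = 0.0192), and Mfap2, a microfibril protein, by −2.56 (SE 0.42, edgeR adjusted p = 0.0393). In thinned cells 1 of the 11 genes called against Postn fibroblasts and 4 of the 8 called against Pi16 fibroblasts still passed. None of the 5 named against Postn fibroblasts was among them, with values for Il1rapl1, Gxylt2, Mmp9, Adgrd1 and Mfap2 of −4.71, 1.48, −1.21, 2.63 and −1.52 (edgeR adjusted p = 0.0597, 0.295, 0.963, 0.308 and 0.701). Mmp9 and Mfap2 also missed with empty-droplet RNA subtracted (edgeR adjusted p = 0.0534 for each), and Zbtb7c and Ltbp4 missed in thinned cells, at −1.39 and −1.19 (edgeR adjusted p = 0.470 and 0.267). Without WT 1, Gas6 and Aspn missed, at −2.34 and 3.67 (edgeR adjusted p = 0.134 and 0.0789). Without Z/Z 1 the count against Postn fibroblasts was 4 and without Z/Z 2 it was 42, and against Pi16 fibroblasts the counts were 17 and 72.

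**Figure D4:**
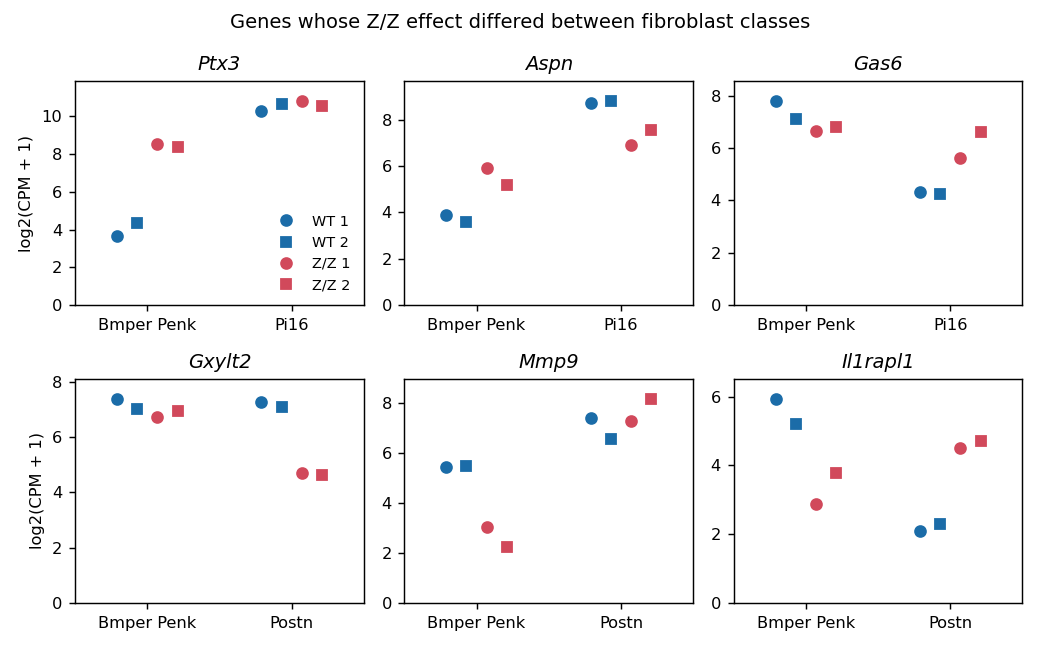
log2(CPM + 1) of 6 genes whose genotype effect differed between Bmper Penk fibroblasts and another class, with 1 point for each library (WT blue, Z/Z red). Ptx3 differed between genotypes in Bmper Penk fibroblasts, at 11.5 and 19.3 CPM against 364 and 332 CPM, while Pi16 fibroblasts had 1221 to 1764 CPM in the 4 libraries.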

How the data were processed

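Single-cell 3′ libraries of CD45- thymic cells were analysed from the deposited UMI counts per gene and barcode, raw and filtered, which the authors made with Cell Ranger (7.01 in the submitters' processing notes) on mm10. Counts were used as deposited, with 32285 features. CPM are UMIs per 1000000 of the summed UMIs of a class in a library, without 96 ribosomal and haemoglobin features. UMI sums per library were tested with edgeR 4.0.16 (TMM, filterByExpr, quasi-likelihood F test, Benjamini-Hochberg adjustment, R 4.3.3), and DESeq2 1.42.0 was an alternative. Rank-sum tests over cells, as in the study, take cells of a library as independent, and sums were used instead. The 18 genes used for selection stayed in the totals and were not tested.

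The members and the 18 gene lists and 7 marker lists were chosen with earlier results of these data known. Named genes were up to 10 per direction with a mean of at least 50 CPM and groups that do not overlap, the 5 smallest adjusted p per class term, and the 20 levels with at least 100 CPM in every library, beside list members; other genes called were named after their values were seen. Thinning took 5000 UMIs per cell, empty droplets had under 100 UMIs, and the highest 3.9% of doublet scores were removed in 1 alternative (scanpy 1.11.5); the main analysis kept all cells. Scripts were tested on simulated data. Of 200 genes with a mean above 50 CPM that were changed in the class model, 193 were called against Postn fibroblasts, beside 13 unchanged genes. No source used here gives the sequencing run or preparation day, so batch and genotype cannot be told apart. Permutation tests were exact. Promoter sequences are from RefSeq. Some genes are not reported here. Gene positions are those of GENCODE on GRCm38.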

Additional observations from a re-analysis of the deposited data

Results flagged for a closer look

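The effect of genotype differed between fibroblast classes by the test of the difference itself for 10 named genes, given as the log2 effect in Bmper Penk fibroblasts minus that in the other class. Against Postn fibroblasts the values were Il1rapl1 (−5.23), Gxylt2 (2.24), Mmp9 (−3.31), Adgrd1 (3.33), Mfap2 (−2.56). Against Pi16 fibroblasts they were Ptx3 (4.38), Gas6 (−2.74), Zbtb7c (−2.09), Aspn (3.42), Ltbp4 (−1.63). In thinned cells none of the 5 differences from Postn fibroblasts passed, with Mmp9 at −1.21 (edgeR adjusted p = 0.963). With 2 libraries per genotype no group was large enough to look for single libraries that stand apart.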

How the results depend on the processing

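Among the 40 genes called between genotypes, 389 of 511 values under alternatives kept direction and call, 122 kept direction without passing and 0 reversed; for the 19 class differences these were 156, 72 and 0 of 228. The 23 higher and 17 lower genes became 56 and 47 with DESeq2 and 282 and 183 with no filter on low counts, which moved the median log2 fold change of all genes to 0.15. Thinned cells gave 40 higher, total UMIs without TMM gave 31 lower, and a gate of at least 5 selection UMIs gave 28 lower. Leaving out 1 library gave 0 to 94 higher and 0 to 81 lower genes, with 94 and 81 without WT 1, 79 and 81 without WT 2, 10 and 1 without Z/Z 1 and 0 and 0 without Z/Z 2. The correlation of deviations of WT 1 with Z/Z 1 was -0.00716 over 9957 genes. With 2 libraries per genotype this value cannot show whether replicate numbers pair the libraries. The fit with a replicate block called 54 higher and 34 lower. Differences from Postn fibroblasts numbered 152 with no filter, 4 in thinned cells (1 of the 11 genes reported), 4 with empty-droplet RNA subtracted and 4 to 42 with 1 library left out; those from Pi16 fibroblasts numbered 21 with DESeq2, 203 with no filter, 14 in thinned cells (4 of the 8 reported) and 17 to 72 with 1 library left out. The causes were not tested. The alternatives for levels were chosen after seeing the data.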
